A study of Mus musculus with 6 samples.

Results

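The genes described here encode enzymes that turn arachidonic acid into prostaglandins and leukotrienes in the prefrontal cortex of *Pla2g4e* knockout (KO) and wild-type (WT) mice. The members were 10 named genes, namely *Ptgs1*, *Ptgs2*, *Ptges*, *Ptges2*, *Ptges3*, *Ptgds*, *Hpgds*, *Alox5*, *Alox5ap* and *Lta4h*. They were found by symbol and gene identifier, and their measured values were not used for this. The list itself was chosen with earlier results of these data known. All 10 were among the 56923 genes of the count tables, and all 10 were among the 19084 genes tested. Polyadenylated RNA was sequenced from 6 samples of prefrontal cortex, 3 KO and 3 WT, as a survey of how loss of *Pla2g4e* bears on cortical gene expression. *Pla2g4e* encodes a calcium-dependent member of the cytosolic phospholipase A2 family. The constitutive KO line of the study carries the *Pla2g4e* tm2a allele in a C57BL/6N-A tm1Brd strain. According to the study, this allele holds a LacZ gene-trap cassette that should capture splicing and abolish the function of the gene. In the hippocampus of KO mice the study saw no Pla2g4e protein, by Western blot or by immunostaining. The study names WT littermates as controls in other experiments, and both sexes were used. The age, sex, litter and strain of the mice behind these 6 samples are not given in the sources used here. No treatment is named, no pooling of animals is named, and each sample is taken here as 1 replicate. Since nothing states that the samples came from separate animals, the p-values measure only the spread between these samples.

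Prostaglandins and leukotrienes are local lipid mediators. Phospholipases and, in brain, monoacylglycerol lipase release arachidonic acid, cyclooxygenases oxidise it to prostaglandin H2, and dedicated synthases convert that unstable intermediate to prostaglandins E2, D2 and others. In the leukotriene branch, 5-lipoxygenase acts with its helper protein FLAP to make leukotriene A4, which a hydrolase turns into leukotriene B4. In the brain prostaglandin D2 is known for its part in sleep regulation, prostaglandin E2 for fever and pain, and *Ptgs2* as a gene that neurons induce with activity.

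The promoters of 4 members are shown because they belong to the steps that a pair of enzymes can carry out. *Ptgs1* and *Ptgs2* both make prostaglandin H2, and *Ptgds* and *Hpgds* both make prostaglandin D2. Each window of 300 bases is RefSeq sequence of the GRCm38.p6 assembly, printed 5′ to 3′ on the strand of the gene, with 250 bases before and 50 after the annotated start. The windows are chr2:36230176-36230475 on the + strand for *Ptgs1*, chr1:150099781-150100080 on the + strand for *Ptgs2*, chr2:25469700-25469999 on the - strand for *Ptgds* and chr6:65144681-65144980 on the - strand for *Hpgds*. Capitals mark a GC box (GGGCGG on either strand) or an E-box (CACGTG, which reads the same on both strands).
Ptgs1: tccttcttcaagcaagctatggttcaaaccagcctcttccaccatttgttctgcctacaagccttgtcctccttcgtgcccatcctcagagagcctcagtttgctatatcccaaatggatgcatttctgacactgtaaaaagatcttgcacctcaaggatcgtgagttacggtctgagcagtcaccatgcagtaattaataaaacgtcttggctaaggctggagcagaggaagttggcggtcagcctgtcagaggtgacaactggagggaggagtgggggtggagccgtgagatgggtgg
Ptgs2: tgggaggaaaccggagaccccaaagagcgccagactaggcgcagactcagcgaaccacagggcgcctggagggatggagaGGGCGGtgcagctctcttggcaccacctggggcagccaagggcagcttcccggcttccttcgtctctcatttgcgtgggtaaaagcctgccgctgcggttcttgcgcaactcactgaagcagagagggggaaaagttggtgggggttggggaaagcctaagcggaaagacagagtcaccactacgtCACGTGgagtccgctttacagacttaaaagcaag
Ptgds: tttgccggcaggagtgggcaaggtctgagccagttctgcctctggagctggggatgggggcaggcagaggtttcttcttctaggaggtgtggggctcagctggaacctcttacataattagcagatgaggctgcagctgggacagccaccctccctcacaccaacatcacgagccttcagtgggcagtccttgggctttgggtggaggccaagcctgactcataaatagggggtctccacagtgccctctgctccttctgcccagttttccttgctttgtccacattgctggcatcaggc
Hpgds: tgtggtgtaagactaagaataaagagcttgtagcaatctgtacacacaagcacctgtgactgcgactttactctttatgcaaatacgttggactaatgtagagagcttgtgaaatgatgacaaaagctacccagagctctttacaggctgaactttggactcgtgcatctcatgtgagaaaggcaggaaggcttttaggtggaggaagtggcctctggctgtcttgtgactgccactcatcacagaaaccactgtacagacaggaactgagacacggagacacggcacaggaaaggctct

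A window was found for 9 of the 10 members, all except *Alox5ap*. GGGCGG or its reverse complement stood in the windows of *Ptgs2*, *Ptges*, *Ptges3* and *Alox5*, 4 of the 9, and in 35.7% of the 32851 windows of the whole table. CACGTG stood in those of *Ptgs2* and *Ptges2* and in 7.15% of all windows. The TATA letters TATAAA, found in 13.6% of all windows, and the cAMP response element TGACGTCA, found in 1.79%, stood in none of the 9 on either strand. These matches describe letters in a window and not binding. The windows shown for *Ptgs1*, *Ptgds* and *Hpgds* held none of the 4 motifs, while that of *Ptgs2* held a GC box starting at position -170 and an E-box starting at position 16 relative to the annotated start.

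Library totals were 11792463 to 14594230 fragments, 23297 to 24349 genes were detected in each, and the mitochondrial share was 6.13% to 7.41%. The targeted gene itself, *Pla2g4e*, was at 5.94, 8.12 and 7.96 CPM (fragments per 1000000 after TMM scaling) in KO replicates 1 to 3. It was at 7.83, 11.3 and 13.2 CPM in the libraries labelled WT 1, WT 2 and WT 3. Its log2 fold change (log2 of KO over WT) was -0.55 with a standard error (SE) of 0.21 (interval -0.99 to -0.10, unadjusted p 0.0205 and adjusted p 0.635 in limma-voom, and an unadjusted p under 0.05 in 14 of 17 alternatives), and the value labelled WT 1 fell inside the range of the KO libraries. These counts sum all exons and do not separate the trapped from the intact transcript. KO replicate 1 and the library labelled WT 1 had 1386 and 969 CPM of *Xist*, and the other 4 libraries had 0.245 CPM or less, so that each group held 1 library of that kind. Between this KO and this WT library with high *Xist*, *Pla2g4e* was lower in KO (5.94 against 7.83 CPM). Among the other 4 libraries it was also lower in KO (8.12 and 7.96 against 11.3 and 13.2 CPM). With an *Xist* covariate the log2 fold change of *Pla2g4e* was -0.54 (unadjusted p 0.00183, adjusted p 0.243 in limma-voom). Neuronal markers, which define the labelled tissue, summed to 12720 to 14590 CPM over the 6 libraries. *Ttr*, a choroid plexus gene, was at 0.540, 0.251 and 0.624 CPM in KO replicates 1 to 3 and at 1.72, 26.8 and 2.12 CPM in the libraries labelled WT 1, WT 2 and WT 3.

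Levels of different genes were compared as TPM, which divides counts by exon length and scales each library to 1000000. *Ptgds* was by far the most abundant member in every library, with a mean of 1331 TPM and a range of 784 to 1536 TPM over the 6 libraries. It made up 89.5%, 88.7% and 89.0% of the TPM of the 10 genes in the KO libraries, and 87.1%, 80.4% and 88.1% in the WT libraries. *Ptges3* followed at 88.8 TPM, and its range of 82.8 to 102 TPM lay apart from those of its neighbours in the order. *Lta4h* (21.5 TPM), *Ptges2* (20.8), *Ptgs1* (18.5) and *Ptgs2* (18.1) came next, and each neighbour's range overlapped with that of the next. *Alox5ap* stood alone at 9.11 TPM, while *Hpgds* (5.93 TPM) and *Ptges* (4.48 TPM) overlapped. *Alox5*, at 0.810 TPM, was the lowest and lay at percentile 9.45 of the genes tested, whereas *Ptgds* lay at percentile 99.8.

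**Figure D1:**
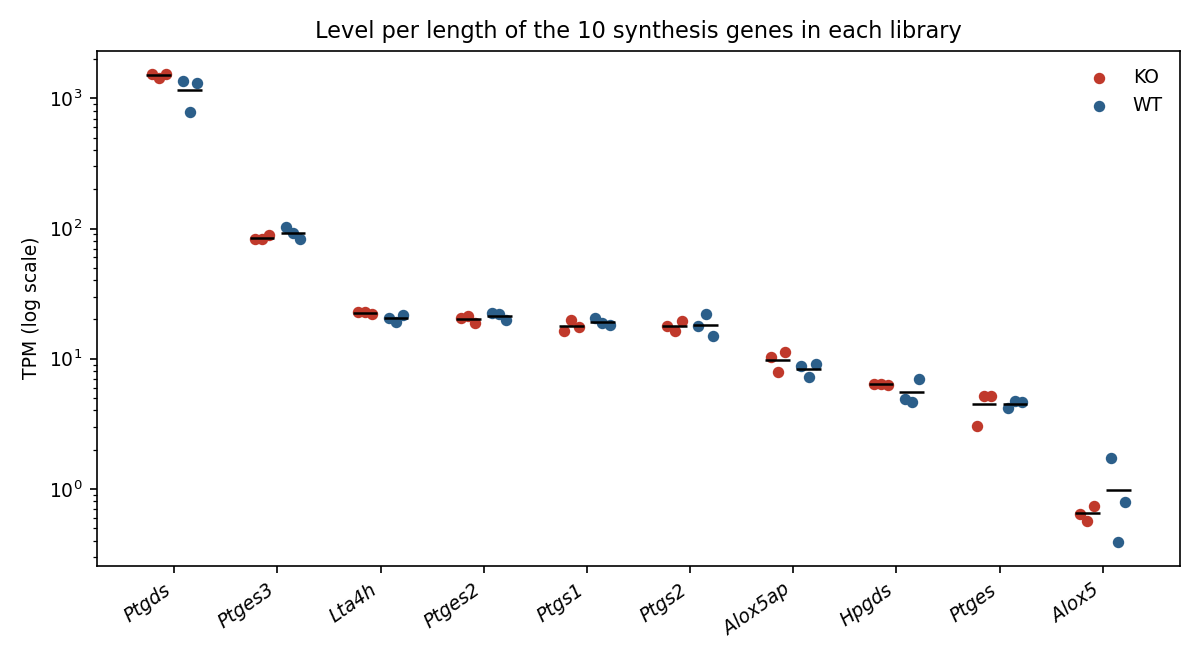
Level of the 10 genes in each of the 6 libraries, in TPM on a log axis, ordered by mean level. Red points are KO, blue points are WT, ordered by replicate number, and black lines are group means. *Ptgds* lies above all others in every library, and its lowest point, 784 TPM, is the library labelled WT 2.

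Between KO and WT, no member passed the adjusted threshold of 0.05 in limma-voom, and neither did any gene of the 19084 tested (0.00%). Of the 10 members, 4 had a higher fitted level in KO and 6 a lower one, with a median log2 fold change of -0.08, beside 51.9% higher and a median of 0.01 over all genes tested. The median of the members turned to 0.02 without KO replicate 1, 0.03 without the library labelled WT 1 and 0.10 in the 4 libraries with little *Xist* alone, and it was -0.12 without WT replicate 3. At an unadjusted p under 0.05 limma-voom called 1 member, *Ptgds*, beside 7.81% of all genes tested (1491 genes). The same member was the only one with all KO values above all WT values, which held for 6.72% of all genes. No member was lower in every KO library, which held for 6.29%. 1 call among 10 members is close to these background shares. edgeR's quasi-likelihood test called 0 genes at the adjusted threshold and 1507 (7.90%) at the unadjusted one, and DESeq2 called 1 and 902 (4.73%). Neither of these tools called a member at the unadjusted threshold. Of the 10 intervals, 9 spanned 0, the exception being that of *Ptgds*.

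**Figure D2:**
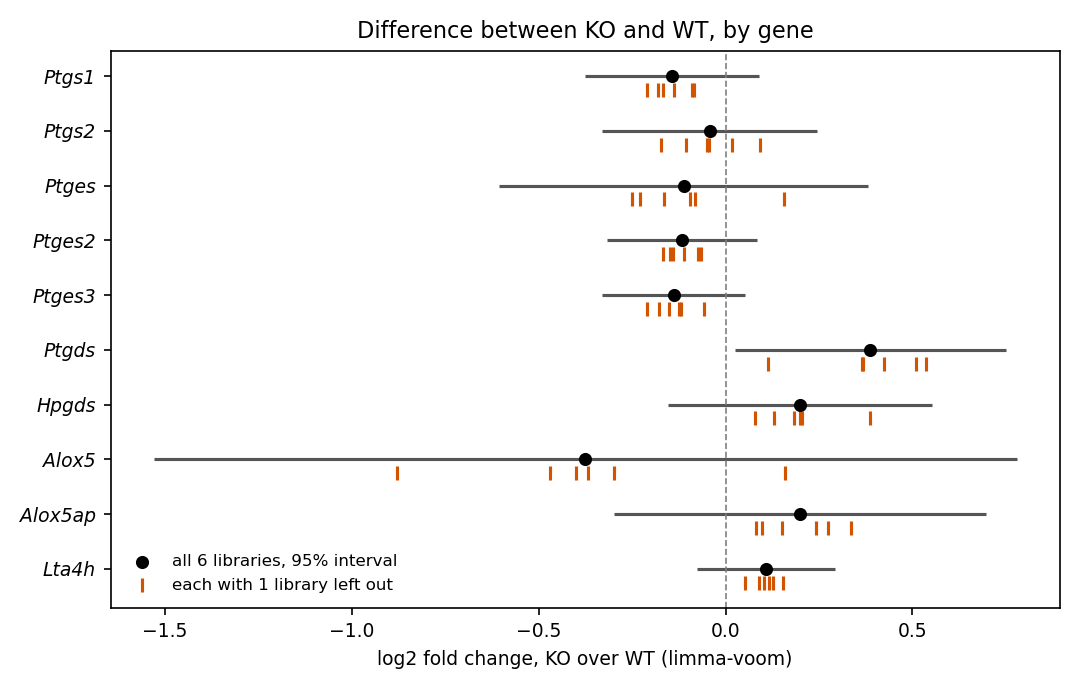
Difference between KO and WT for each of the 10 genes, as log2 fold change from limma-voom. Black points with lines are the value from all 6 libraries with its 95% interval, and orange ticks are the 6 values with 1 library left out each. Only the interval of *Ptgds* lies to one side of 0, and 1 of its ticks, the value without WT replicate 2, falls to 0.11.

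The cyclooxygenases showed no difference larger than the spread of the libraries. *Ptgs1*, the constitutive form (chr2:36120438-36142284, GRCm39, + strand), was at 16.4, 19.3 and 17.4 CPM in KO replicates 1 to 3 and at 20.9, 18.8 and 18.6 CPM in the WT libraries. KO replicate 2 lay among the WT values, so the groups overlapped. *Ptgs1* had a log2 fold change of -0.14, with a 95% interval of -0.38 to 0.09 and an adjusted p of 0.723 in limma-voom. It was -0.08 without KO replicate 1, -0.09 without the library labelled WT 1 and -0.03 in the 4 libraries with little *Xist* alone. *Ptgs2*, the inducible form (chr1:149975782-149983978, + strand), was at 21.1, 19.0 and 23.0 CPM in KO and at 21.4, 26.2 and 18.1 CPM in WT. Both the highest and the lowest value were WT libraries, and the KO values lay between them. The log2 fold change, -0.04 (interval -0.33 to 0.25, adjusted p 0.945 in limma-voom), was the smallest in size of the 10 members, and it turned to 0.09 without WT replicate 2 and to 0.02 without KO replicate 2. Per length, the ratio of *Ptgs2* to *Ptgs1* came to 1.09, 0.833 and 1.12 in the KO libraries and 0.867, 1.18 and 0.827 in the WT libraries, so that neither form was the more abundant one throughout. Immediate early genes, which neurons induce with activity as they do *Ptgs2*, summed to 654 to 1024 CPM in KO and 595 to 892 CPM in WT, and 8 of the 11 tested had a higher fitted level in KO. None of the 11 passed an unadjusted p of 0.05 in limma-voom. Neuronal markers summed to 12720 to 13760 CPM in KO and 13510 to 14590 CPM in WT, with 9 of 12 at a lower fitted level in KO, 5 of them at an unadjusted p under 0.05 in limma-voom. The part of these lists in the *Ptgs2* values was not tested.

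The prostaglandin E synthases were likewise within the spread. *Ptges*, the inducible membrane-bound synthase that acts downstream of *Ptgs2* (chr2:30779483-30819875, - strand), was at 3.11, 5.11 and 5.23 CPM in KO and at 4.31, 4.74 and 4.86 CPM in WT. KO replicate 1 was the lowest of all 6, and the other 2 KO libraries were the highest. For *Ptges* the log2 fold change was -0.11 (interval -0.60 to 0.38, adjusted p 0.906 in limma-voom), and it was 0.16 without KO replicate 1. With 46 to 67 fragments per library, counting alone gave *Ptges* a coefficient of variation of 13.1%, against 26.6% measured in KO and 6.30% in WT. *Ptges2*, the second membrane-associated synthase (chr2:32285908-32295784, + strand), was at 26.95, 27.3 and 24.4 CPM in KO and at 30.1, 28.6 and 26.6 CPM in WT. KO replicates 1 and 2 lay above WT replicate 3. For *Ptges2* the log2 fold change was -0.12 (interval -0.32 to 0.08, adjusted p 0.738 in limma-voom), and it was -0.07 both without KO replicate 3 and without the library labelled WT 1. *Ptges3*, the cytosolic synthase that is also the Hsp90 co-chaperone p23 (chr10:127894823-127913141, + strand), was at 47.6, 46.7 and 51.2 CPM in KO and at 59.6, 52.4 and 48.6 CPM in WT. The highest 2 values were WT libraries and the lowest 2 were KO libraries, with an overlap of KO replicate 3 and WT replicate 3. For *Ptges3* the log2 fold change was -0.14 (interval -0.33 to 0.05, adjusted p 0.681 in limma-voom), and it ran from -0.06 without the library labelled WT 1 to -0.21 without WT replicate 3 (unadjusted p 0.0401 in limma-voom). All 3 synthases thus had a negative fitted value with an interval that included 0, which does not show that their levels were alike.

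Among the prostaglandin D synthases, *Ptgds* gave the only interval of the members that lay to one side of 0. *Ptgds* encodes the lipocalin-type synthase, a secreted protein that leptomeningeal cells, choroid plexus and oligodendrocytes are known to make (chr2:25356721-25360058, - strand). It was at 655, 600 and 652 CPM in KO replicates 1 to 3 and at 596, 332 and 577 CPM in the libraries labelled WT 1, WT 2 and WT 3, from 4062 to 9699 fragments. Every KO library was higher than every WT library, but the nearest values, 599.5 CPM (KO replicate 2) and 595.7 CPM (labelled WT 1), were close together, and WT replicate 2 stood far below the other 5. The means were 636 ± 31.2 CPM in KO and 502 ± 147 CPM in WT (SD, n = 3 each). The log2 fold change was 0.39 (SE 0.17, interval 0.03 to 0.75), a 1.31-fold higher fitted level in KO, with an unadjusted p of 0.0379 and an adjusted p of 0.635 in limma-voom. Without WT replicate 2 the log2 fold change was 0.11 (interval -0.04 to 0.27, unadjusted p 0.137 in limma-voom), a 1.08-fold higher level. Without the library labelled WT 1, the WT library with high *Xist*, whose *Pla2g4e* level lay within the KO range, it was 0.54. Without WT replicate 3 it was 0.51. Leaving out KO replicates 1, 2 and 3 in turn gave 0.36, 0.42 and 0.37, with unadjusted p values of 0.0535 to 0.0766 in limma-voom. The value from the 4 libraries with little *Xist* alone was 0.51 (unadjusted p 0.00237, adjusted p 0.999 in limma-voom), and these include WT replicate 2.

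*Hpgds*, the haematopoietic synthase found in microglia and macrophages (chr6:65094277-65121892, - strand), was at 10.7, 10.3 and 10.5 CPM in KO and at 8.30, 7.69 and 11.8 CPM in WT. The 3 KO values were almost equal (coefficient of variation 1.80%, below the 8.85% that counting alone gives), and the WT libraries lay on both sides of them (24.2%). For *Hpgds* the log2 fold change was 0.20 (interval -0.15 to 0.55, adjusted p 0.745 in limma-voom). Without WT replicate 3, the highest library, it was 0.39 with an unadjusted p of 0.0241 in limma-voom, and without WT replicate 2 it was 0.08. The TPM of *Ptgds* divided by that of *Hpgds* came to 239, 227 and 243 for the KO libraries and 280, 168 and 190 for WT, so the lipocalin-type transcript prevailed by over 100-fold in every library.

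Markers of the cell types known to express *Ptgds* varied between the libraries too. In these bulk samples, fewer cells of a type and less RNA per cell cannot be told apart. Summed markers of leptomeningeal fibroblasts, such as *Dcn*, *Slc6a13* and *Igf2*, were at 141, 134 and 124 CPM in KO and at 171, 74.7 and 108 CPM in WT. WT replicate 2 was the lowest library for the sum and for 9 of the 10 markers, whereas it was the lowest for 18.9% of all genes tested. It was also the lowest library for 7 of 10 astrocyte, 6 of 11 endothelial and 6 of 12 microglial markers and for each of these sums, and it was the highest for the neuronal sum. The fitted level was higher in KO for 9 of the 10 leptomeningeal markers, none at an unadjusted p under 0.05. *Igf2* was the highest of them at 0.67 (unadjusted p 0.0612, adjusted p 0.637 in limma-voom). Perivascular macrophage markers were also lowest in WT replicate 2, at 7.85 CPM against 12.3 to 17.6 CPM in the other 5. Oligodendrocyte markers summed to 2373, 2715 and 2758 CPM in KO and to 1842, 2045 and 3053 CPM in WT, and 11 of the 12 had a higher fitted level in KO, 1 at an unadjusted p under 0.05 in limma-voom. They were lowest in the library labelled WT 1 and second lowest in WT replicate 2. The sum of choroid plexus markers was highest in WT replicate 2, at 37.2 CPM against 8.04 to 17.3 CPM elsewhere, largely through *Ttr*. Without *Ttr* the other 9 markers summed to 10.4 CPM there against 7.77 to 16.8 CPM elsewhere. The 16.8 CPM was KO replicate 1, where *Aqp1* was at 9.66 CPM. WT replicate 2 was the highest library for *Kl* (5.07 CPM), *Clic6* (2.37 CPM), *Prlr* (0.982 CPM) and *Otx2* (0.654 CPM) too. It was the lowest library for 2 of the 7 tested. The choroid plexus marker *Folr1* was at 0.270 CPM or less in every library. No marker of these 4 lists was at 0 in all libraries. Outside the cell types known for *Ptgds*, all 10 astrocyte and all 10 striatal neuron markers also had a higher fitted level in KO (medians 0.10 and 0.27), 1 of each list at an unadjusted p under 0.05 in limma-voom. The part of these cell types in the *Ptgds* difference was not tested.

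**Figure D3:**
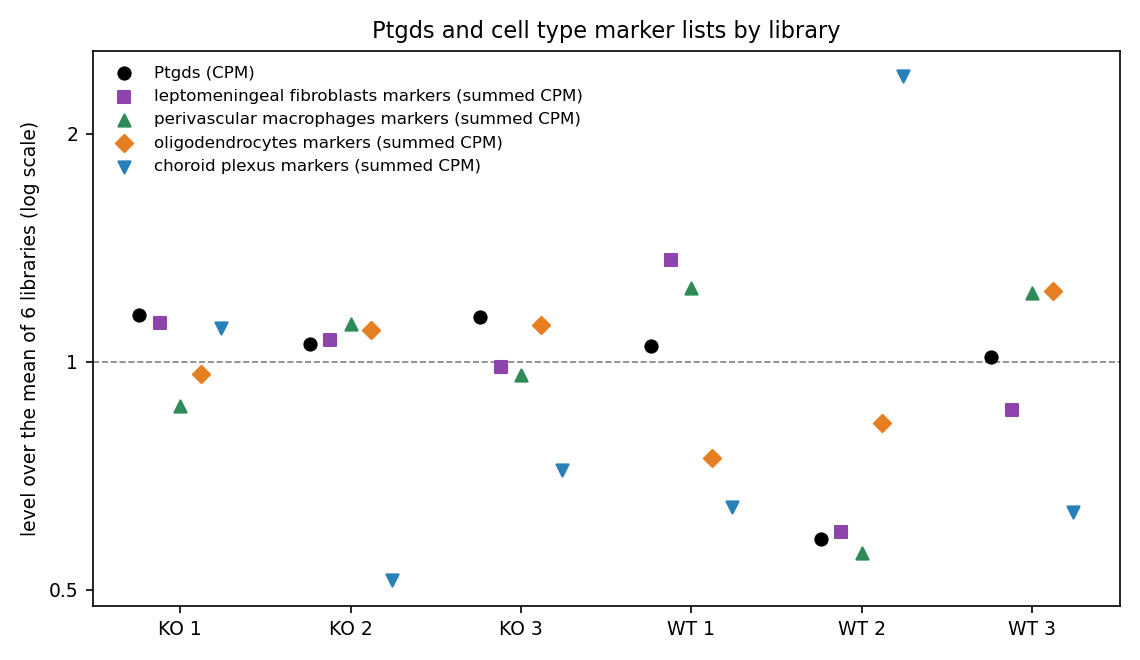
*Ptgds* and the summed markers of 4 cell types in each library, each divided by its mean over the 6 libraries, on a log axis. *Ptgds* (black circles), leptomeningeal markers (purple squares) and perivascular macrophage markers (green triangles) have their lowest points in WT 2. Choroid plexus markers (blue triangles) have their highest point there, largely through *Ttr*, at 26.8 of 37.2 CPM.

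In the leptomeningeal list the library labelled WT 1 was the highest and *Ptgds* was not, so the order of the libraries was shared at its low end and not throughout. The genes whose pattern over the 6 libraries was closest to that of *Ptgds*, by the root-mean-square difference of centred log2 CPM among 15202 genes, were *Gm43848* (0.07), *Anpep* (0.09), *Serping1* (0.09), *Dab2* (0.09) and *Parp14* (0.10). All 5 were lowest in WT replicate 2, as *Anpep* at 4.58 CPM against 7.37 to 7.95 CPM in the other libraries. *Alox5* varied more than any other member (0.409 to 1.88 CPM) and was left out of this comparison because its mean log2 CPM was under 0. For *Ptges*, the second most variable of the other 9 on the log2 scale, they were *Gm16485* (0.04), *Mvd* (0.05), *Col12a1* (0.06), *Zc3hav1l* (0.07) and *Egfl6* (0.07), which were all lowest in KO replicate 1. For *Alox5ap*, the third, they included *Zic2* (0.06), *Als2cl* (0.06), *Crtap* (0.06) and *Enpep* (0.07). These rankings over 6 libraries describe likeness of pattern only. That the listed genes share the lowest library of their member is largely given by how they were chosen.

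The leptomeningeal and macrophage lists apart, the microglial markers relevant to *Hpgds* and to the leukotriene genes summed to 469, 432 and 452 CPM in KO and to 513, 412 and 464 CPM in WT. The groups overlapped, and 5 of the 12 markers had a higher fitted level in KO and 7 a lower one. 1 of the 12 passed an unadjusted p of 0.05 in limma-voom, in the direction of lower in KO.

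The leukotriene branch was expressed unevenly, and no member of it differed beyond the spread. *Alox5* encodes 5-lipoxygenase, the enzyme that starts leukotriene synthesis (chr6:116387038-116438139, - strand). The KO libraries held only 10, 7 and 10 *Alox5* fragments and the WT libraries 24, 5 and 11, or 0.676, 0.586 and 0.781 CPM and 1.88, 0.409 and 0.863 CPM. The library labelled WT 1 was the highest and WT replicate 2 the lowest, with all KO libraries between them. The fitted difference was -0.38 on the log2 scale (interval -1.53 to 0.78, adjusted p 0.857 in limma-voom) and turned to 0.16 without the library labelled WT 1. The coefficient of variation of *Alox5* was 71.7% in WT and 14.3% in KO, against 29.9% from counting alone. *Alox5ap* encodes FLAP, which presents arachidonic acid to 5-lipoxygenase (chr5:149201577-149224963, + strand). It was at 3.78, 2.85 and 4.14 CPM in KO and at 3.29, 2.62 and 3.45 CPM in WT, with KO replicate 2 among the WT values. For *Alox5ap* the log2 fold change was 0.20 (interval -0.30 to 0.70, adjusted p 0.821 in limma-voom), and it ran from 0.08 without WT replicate 2 to 0.33 without KO replicate 2. Per length, *Alox5ap* exceeded *Alox5* by 16.2, 14 and 15.3 times in KO and by 5.06, 18.5 and 11.6 times in WT.

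*Lta4h*, the hydrolase that makes leukotriene B4 and is also an aminopeptidase (chr10:93289273-93320737, + strand), was at 36.1, 35.2 and 34.3 CPM in KO and at 33.1, 30.2 and 34.9 CPM in WT. KO replicate 3 lay below WT replicate 3, and WT replicate 2 was the lowest. The log2 fold change was 0.11 (interval -0.08 to 0.29, adjusted p 0.734 in limma-voom), and 0.05 without WT replicate 2. WT replicate 2 was the lowest library for 5 of the 10 members, namely *Ptgds*, *Hpgds*, *Alox5*, *Alox5ap* and *Lta4h*. It was not the lowest library for any cyclooxygenase or prostaglandin E synthase, and it was the highest for *Ptgs2*.

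On the genome, *Ptgs1*, *Ptges*, *Ptges2* and *Ptgds* share chromosome 2 with *Pla2g4e*. They lie 83.9 to 94.6 Mb away from it, and 3 of these 4 had a negative fitted value.

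The other genes of the pathway were grouped by role. Among 8 tested synthases other than the members, 2 had a higher fitted level in KO and 6 a lower one (median -0.07). *Prxl2b*, which encodes prostamide/prostaglandin F synthase, was at 36.5, 35.6 and 38.2 CPM in KO and at 48.6, 46.1 and 41.1 CPM in WT. Every KO library was lower than every WT library. Its log2 fold change was -0.30 (SE 0.09, interval -0.48 to -0.11, unadjusted p 0.00431, adjusted p 0.635 in limma-voom), and it stayed between -0.37 and -0.24 with an unadjusted p under 0.05 in all 17 alternatives. *Akr1b3*, an aldo-keto reductase with prostaglandin F synthase activity, was also lower in every KO library, at 15.1, 12.5 and 15.1 CPM against 16.9, 15.5 and 16.3 CPM. The log2 fold change of *Akr1b3* was -0.19, with an unadjusted p of 0.129 and an adjusted p of 0.681 in limma-voom, and it ran from -0.24 to -0.11 over the 17 alternatives, the latter without KO replicate 2. *Ggt5*, which cleaves leukotriene C4 to D4, was at 3.85, 3.01 and 4.22 CPM in KO and at 3.06, 2.37 and 2.04 CPM in WT. The difference on the log2 scale was 0.57 (SE 0.24, unadjusted p 0.0357, adjusted p 0.635 in limma-voom), and KO replicate 2 lay just below the library labelled WT 1. The unadjusted p of *Ggt5* was under 0.05 in 12 of the 17 alternatives, and it was 0.0861 in DESeq2 and 0.0796 to 0.13 in limma-voom when 1 of KO replicates 1 and 3 or WT replicates 2 and 3 was left out. *Mgst3*, the most abundant of these synthases by mean TPM over the 6 libraries (165, beside 154 for *Prxl2b*, which was higher in the WT mean), was at 42.4 to 49.8 CPM in KO and 42.9 to 50.8 CPM in WT. Of the 10 listed, *Mgst2* and *Dpep1* were too low to test, and *Dpep1* had no fragment in any library.

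In the group for prostaglandin breakdown and transport, 5 genes were tested, 3 higher and 2 lower in KO, with a median of 0.08. *Ptgr1*, a reductase that inactivates prostaglandins and leukotriene B4, was counted 9, 2 and 5 times in the KO libraries and 17, 15 and 12 times in the WT libraries. Every KO library was lower, with a log2 fold change of -1.58 (SE 0.50, interval -2.67 to -0.49, unadjusted p 0.00822, adjusted p 0.635 in limma-voom). The value stayed between -1.98 and -1.17 over the 17 alternatives, all with an unadjusted p under 0.05, and it rests on few fragments. *Ptgr2*, the related and more abundant reductase, was at 43.6 to 46.3 CPM in KO and 39.6 to 45.8 CPM in WT.

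The remaining groups held no gene with an unadjusted p under 0.05 in limma-voom. Of 10 other lipoxygenases, epoxygenases and epoxide hydrolases, 7 had a higher fitted level in KO and 3 a lower one (median 0.05), with *Ephx1*, an epoxide hydrolase and the most abundant by mean TPM over the 6 libraries, at 13.4 to 17.2 CPM in KO and 12.02 to 17.8 CPM in WT. Of 11 tested receptors 6 were higher and 5 lower (median 0.10). Most were scarce, and the leukotriene B4 receptors *Ltb4r1* and *Ltb4r2*, the prostacyclin receptor *Ptgir* and the prostaglandin D2 receptor *Ptgdr2* were too low to test. The other prostaglandin D2 receptor, *Ptgdr*, was at 1.28, 1.26 and 2.11 CPM in KO and at 1.18, 0.818 and 1.65 CPM in WT. *Gpr17*, a receptor of oligodendrocyte precursors that is related to the cysteinyl leukotriene receptors, was the most abundant of the group per length, at 39.3 to 42.5 CPM in KO and 36.6 to 53.5 CPM in WT. Of 6 genes that release arachidonic acid 2 were higher and 4 lower (median -0.03), and *Mgll*, the monoacylglycerol lipase, was at 235 to 280 CPM in KO and 243 to 269 CPM in WT with a log2 fold change of -0.02 (interval -0.19 to 0.15), or 0.0036 with library totals alone. Across all 40 tested genes outside the members, the 3 with an unadjusted p under 0.05 were *Prxl2b*, *Ggt5* and *Ptgr1*, beside 7.81% of all genes tested. These 3 met the rule for naming through that p, and the alternatives refit counts of the same libraries. A p that stays low in those refits is therefore not separate evidence.

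**Figure D4:**
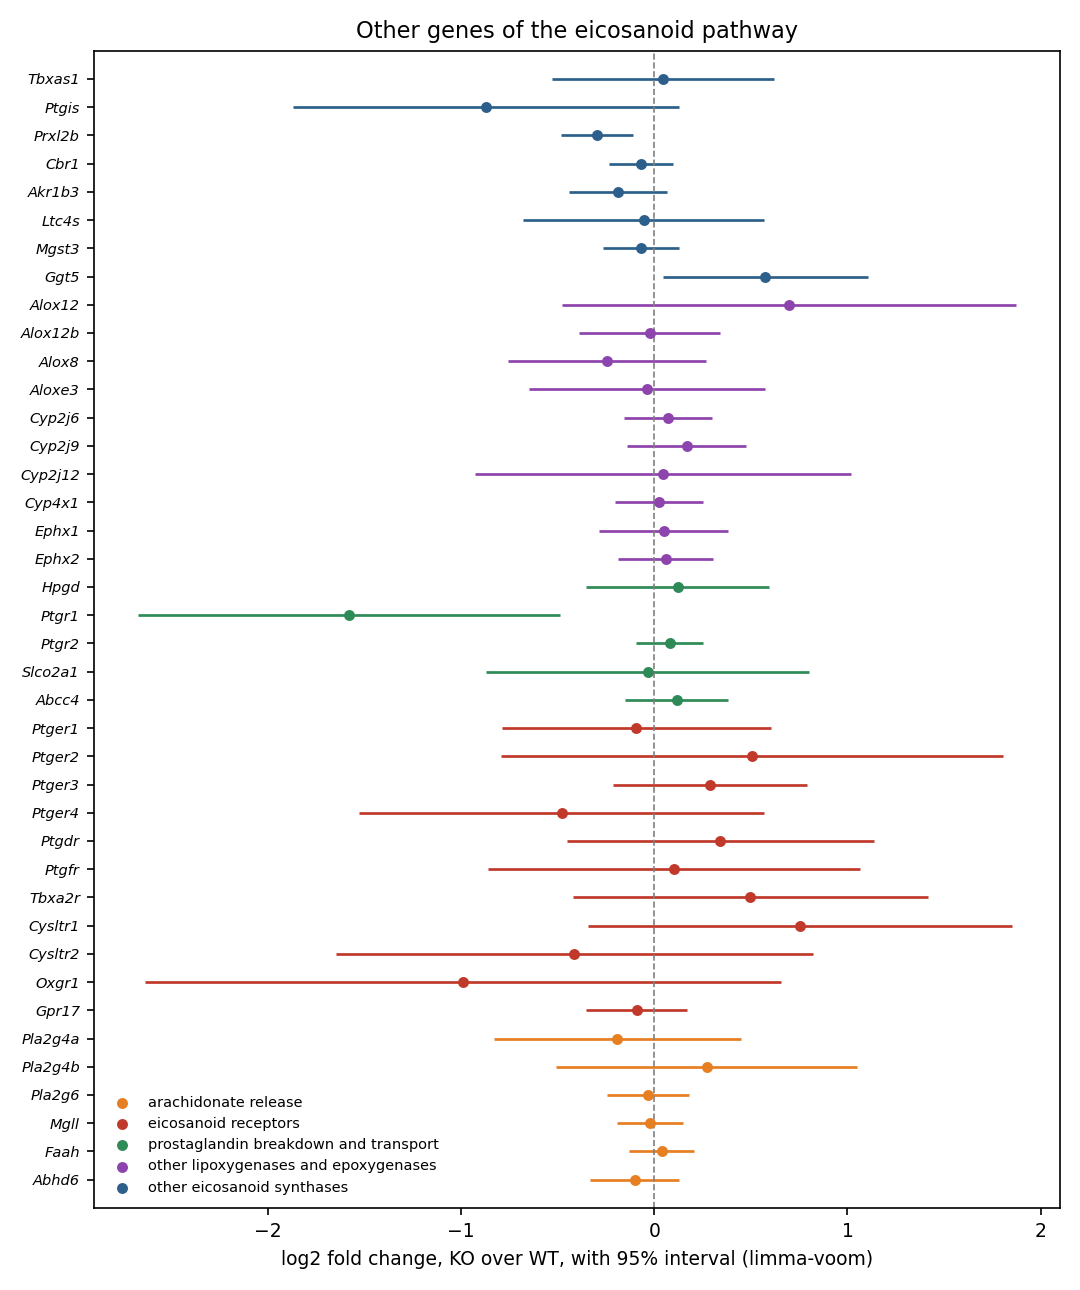
Difference between KO and WT for the other tested genes of the pathway, as log2 fold change from limma-voom with its 95% interval, coloured by role. The intervals of *Prxl2b* and *Ptgr1* lie below 0 and that of *Ggt5* above 0, while the scarce receptors have the widest intervals.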

How the data were processed

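Polyadenylated RNA of 6 prefrontal cortex samples was made into strand-specific libraries (TruSeq Stranded mRNA) by the authors, and groups and replicate numbers were taken from the sample titles. The deposited values are raw counts of fragments per gene, 1 table per sample, with no normalization and no pooling. The submitters' processing notes name FastQC 0.11.8, STAR 2.7.9a, featureCounts 1.6.0 and GRCm39. Per the file headers, exonic fragments were counted with strand option 2 on GENCODE M31, so antisense genes are separated, and fragments mapping to several places were not counted. The study's methods name an earlier build and annotation, and coordinates here are those of the files, except promoters (RefSeq, GRCm38.p6). Counts are summed over exons, so isoforms were not separated.

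Symbols came from a GENCODE annotation matched by gene identifier, for 52073 of 56923 genes. Following the study's methods, the 19084 genes with at least 6 fragments in at least 1 library were scaled by TMM (edgeR 4.0.16), and limma-voom compared the groups (limma 3.58.1, R 4.3.3), two-sided, without covariates, with p-values adjusted by the Benjamini-Hochberg method over these genes at a threshold of 0.05. Intervals are 95% and come from this fit. CPM use TMM-scaled library sizes, and TPM use the exon lengths of the files. Library totals of 11792463 to 14594230 fragments carry no molecular identifiers, so counting variation excludes amplification. The alternatives were edgeR's quasi-likelihood test, DESeq2 1.42.0, other scaling and filters, library quality weights, a replicate block, an *Xist* covariate, the libraries with *Xist* under 100 CPM alone, and leaving out each library. The scripts were tested on simulated counts. The members and gene lists were chosen with earlier results of these data known.

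Named genes were *Pla2g4e*, the members, genes of the other pathway lists with an unadjusted p under 0.05 or with no overlap between groups at a mean log2 CPM of at least 0, the most abundant gene of each list, and for the 3 most variable members above the same level, which leaves out *Alox5*, the 5 genes closest in pattern, 1 of which is not reported here. *Ptgdr* and the scarce receptors were named after their values were seen. Marker lists were read as sums and counts without a test of the list. Those of blood cells (35.8 to 62.4 CPM), endothelium (291 to 374 CPM), astrocytes (4674 to 5561 CPM) and striatal neurons (262 to 460 CPM) gave overlapping ranges in KO and WT, with a higher fitted level in KO for 1 of 8, 4 of 11, 10 of 10 and 10 of 10 tested markers.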

Additional observations from a re-analysis of the deposited data

How the results depend on the processing

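Of the 10 members, 7 kept the direction of their log2 fold change under every alternative run, and no member passed the adjusted threshold under any. *Ptgds* had log2 fold changes of 0.11 to 0.54 over 17 alternatives, with an unadjusted p under 0.05 in 10 of them (adjusted p 0.335 to 0.999). It was 0.34 in edgeR's quasi-likelihood test (p 0.0614) and 0.34 in DESeq2 (p 0.175). The direction turned in leave-one-out fits for *Ptgs2* (-0.17 to 0.0917), *Ptges* (-0.25 to 0.16) and *Alox5* (-0.88 to 0.16), and among the other pathway genes for *Ephx1* (-0.11 to 0.16), *Gpr17* (-0.22 to 0.0640) and *Mgll* (-0.10 to 0.0236). In the libraries with *Xist* under 100 CPM alone it turned for *Ptges* (0.10), *Alox5* (0.17) and *Gpr17* (0.0792), and *Mgll* was at 0.0036 with library totals alone. The cause was not tested. The number of members with a higher level in KO was 4 to 6. The strictest filter left *Alox5* untested.

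Genes past the adjusted threshold numbered 1 in DESeq2, 24 with an *Xist* covariate, 3 in the libraries with *Xist* under 100 CPM alone and 0 to 1 in leave-one-out fits, the 1 being without WT replicate 2. Genes past the unadjusted threshold numbered 902 in DESeq2, 696 in the libraries with *Xist* under 100 CPM alone and 782 to 2238 in leave-one-out fits. The lowest of these, 782, came without WT replicate 2, and there were 830 once KO replicate 1 was left out. Leaving out WT replicate 3 gave the highest, with 11.8% of genes and 3 members (*Ptgds*, *Ptges3* and *Hpgds*). The scaling alternatives moved the median of all genes to at most 0.03. With a replicate block, 0 genes passed the adjusted and 1693 the unadjusted threshold, and *Ptgds* was at 0.38 (unadjusted p 0.00308, adjusted p 0.366 in limma-voom). The numbers mark no stated pairing. Deviations of same-numbered samples correlated at 0.49, 0.14 and 0.02, and 2 of 6 samples correlated best with their own number. Fragments per library were few for *Alox5* (5 to 24) and *Ptgr1* (2 to 17), and counting alone gives *Alox5* a coefficient of variation of 29.9%.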
